A study of Mus musculus with 8 samples.

Results

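The bHLH E-box motif counts are the rows of the deposited motif matrices whose motif name starts with that of a basic helix-loop-helix (bHLH) factor, from ATOH, NEUROD, NEUROG and OLIG to TCF3, TWIST, MYC, USF, HES and HEY. The choice rests on names alone, used no measured value, and finds 53 motifs in each sample, beside 526 that it leaves out. HESX1, a homeobox factor caught by its first letters, stays in the count of 53 but in no group. By name, 13 motifs form the proneural group, with those for ATOH, NEUROD, NEUROG, NHLH, OLIG, BHLHE22 and BHLHE23 factors among them. The E protein group holds 16 motifs, for E proteins, their mesodermal partners, ID proteins and TFAP4. The MYC/USF group holds 16, for MYC, MAX, MNT, MLX, USF, TFE, MITF, BHLHE40 and BHLHE41, and the HES/HEY group holds 7.

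The counts come from single-nucleus ATAC-seq, in which a transposase cuts accessible DNA in isolated nuclei, of 4 regions of wild-type (WT) mouse forebrain. These are the cortex (CTX) and the medial, lateral and caudal ganglionic eminences (MGE, LGE and CGE, jointly GE), with 2 samples each. The samples carry no transgene or treatment and carry the embryonic age E12.5, except CTX replicate 2, which is labelled E14.5. The labels do not say whether the samples of a region came from separate embryos, so p-values measure only the spread between these samples.

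Proteins of the bHLH family bind DNA as dimers at the E-box, the hexamer CANNTG, and the inner pair of bases sets which dimers bind best. Proneural factors pair with E proteins such as TCF3, TCF4 and TCF12 and drive the production and maturation of neurons. Neurog2 and the Neurod factors act in the glutamatergic lineage of the cortex. MYC, MAX, USF, TFE and MITF factors bind CACGTG and are known for roles in growth, metabolism and lysosomes. HES and HEY proteins are repressors in the Notch pathway that keep progenitors from differentiating. ID proteins lack the basic part that contacts DNA and hold E proteins off their sites.

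To see what a motif count holds, the counts were compared with those in peaks that contain short strings around a CANNTG core in the mouse reference genome. For 24 of the 53 members the deposited count equalled, in every nucleus of all 8 samples, the summed counts of the peaks with at least 1 of a few strings of 10 or 8 bases. For 28 members this held in every nucleus of at least 6 samples, and 25 members were not matched. NEUROD1, MYC, MYCN, MITF, USF1, Hes1 and HES5 are among those not matched. The 42 strings of the 28 members fell on a few cores, 18 on CACGTG, 10 on CATATG, 7 on CACCTG, 6 on CAGCTG and 1 on CAACTG. The strings below are shown because they define what the main members count, and capitals mark the core.

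OLIG1, OLIG2, OLIG3, NEUROD2, Neurog1, Atoh1, BHLHE22 and Twist2: aaCATATGgt
OLIG1, OLIG2, OLIG3 and Neurog1, also NEUROD2 in 3 samples: acCATATGgt
OLIG1, OLIG2, OLIG3, BHLHE22 and Atoh1: aaCATATGtt
NEUROG2, first string: aaCATATGtc
NEUROG2, second string: gaCATATGtc
NEUROD2 and Atoh1, also Neurog1 in 6 samples: gcCATATGgc
Ascl2, first string: aaCAGCTGct
Ascl2, second string: agCAGCTGct
TFAP4, single string: aaCAGCTGat
MSC, also MYF6: aaCAGCTGtt
MYF6 in 6 samples: aaCAACTGtt
TCF3 and FIGLA: aaCACCTGtt
BHLHE41, TFEB and TFEC: gtCACGTGac
MLX, MLXIPL, TFEB, TFEC and BHLHE40: atCACGTGac
HEY1 and HEY2, also BHLHE40 in 2 samples: ggCACGTGcc
HEY1 and HEY2, further string: gaCACGTGcc
MNT in 3 samples: gcCACGTGcc

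NEUROD2 also counted aaCATATGtt, but only in MGE replicate 1 and both LGE libraries. Members that share strings share counts. OLIG1 and OLIG2 were equal in every nucleus of all 8 samples, as were MLX and MLXIPL. OLIG3 equalled OLIG2 in 7 samples, the exception being CTX replicate 2. MSC equalled MYF6 in CTX replicate 1 and CGE replicate 2. The first string alone entered the counts of 8 members, so the members are not independent readouts, and a motif that carries a factor's name is not a count for that factor's protein. Twist2 stands in the E protein group by its name but counted strings with the CATATG core of the proneural members.

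The samples held 3465 to 6845 nuclei, 39253 in all, and 881 barcodes occurred in more than 1 library. Motif counts summed to between 2140731365 in LGE replicate 2 and 3846553671 in MGE replicate 1, with 350406 to 615577.5 per median nucleus. A peak count entered 23.9 (LGE replicate 1) to 29.7 (CGE replicate 2) motif counts on average, since 1 peak can hold many motifs. Peaks were called separately per sample, 103633 to 182638 of them, so a motif count also moves with what was called as a peak. Promoter peaks took 39.0% and 46.7% of the counts in CTX replicates 1 and 2 and 48.6% to 55.1% in the GE libraries. The count-weighted GC content of peaks was 49.6% and 50.9% in CTX and 51.2% to 52.7% in the GEs.

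The CTX libraries stood apart from each other. In the library labelled E12.5 (CTX replicate 1), 76.6% of nuclei were glutamatergic-like and 19.4% progenitor-like, while 137 nuclei (3.34%) were GABAergic-like. In the library labelled E14.5 (CTX replicate 2), 10.98% were glutamatergic-like, 83.0% were in clusters that no marker list named, 5.46% were endothelial-like, 1 nucleus (0.02%) was progenitor-like and none was GABAergic-like. The larger of those unnamed clusters held 3567 of its nuclei, with Wnt8b, Dmrta1 and Sp8 among its leading genes, and the other 537, led by Wnt3a. Neurons accumulate and progenitors decline in the cortex with age. The glutamatergic-like share was lower in the library labelled as older, opposite to that course, and so was the progenitor-like share. With 83.0% of its nuclei unnamed, neither share shows whether that library follows the course. Most nuclei of CTX replicate 2 carry no class name, so its makeup is largely not known, and age, makeup and library cannot be told apart within CTX. Whether the labels of these libraries were exchanged or the tissue taken differed was not tested, so replicates 1 and 2 are named by their labels only.

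The proneural group took 0.796% of all motif counts in CTX replicate 1 and 0.6065% in CTX replicate 2. In the GE libraries it took 0.666% and 0.675% (MGE), 0.594% and 0.619% (LGE) and 0.656% and 0.662% (CGE). CTX replicate 1 was thus above every GE library, and CTX replicate 2 lay among them. The means were 0.701% ± 0.134 (SD, n = 2) in CTX and 0.645% ± 0.032 (SD, n = 6) in GE, a difference smaller than the spread between the CTX libraries. The same split was seen nucleus by nucleus. The middle 50% of nuclei lay between 0.732% and 0.865% in CTX replicate 1 and between 0.576% and 0.630% in CTX replicate 2, without overlap.

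The MYC/USF group took 0.945% and 1.05% of motif counts in the CTX libraries. It took 1.27% and 1.17% in MGE, 1.13% and 1.185% in LGE and 1.09% and 1.08% in CGE. Both CTX libraries were below all GE libraries, with means of 0.999% ± 0.076 (SD, n = 2) and 1.15% ± 0.072 (SD, n = 6). Per peak count in place of per motif count this separation was lost, since CTX replicate 2 (0.295 motif counts per peak count) lay above LGE replicate 1 (0.270) and CGE replicate 1 (0.288). The E protein group overlapped, at 1.18% ± 0.035 (SD, n = 2) in CTX and 1.22% ± 0.095 (SD, n = 6) in GE. So did the HES/HEY group, at 0.287% ± 0.011 (SD, n = 2) and 0.315% ± 0.075 (SD, n = 6). Within GE the HES/HEY share fell into 2 levels, 0.220% and 0.219% in MGE replicate 1 and LGE replicate 1 and 0.348% to 0.381% in the other libraries. Tcfl5, the member of the group with the most counts, was low in the same libraries, at 948 and 1141 counts per 1000000 motif counts (CPM) there and 2114 to 2670 in the other GE libraries. The shares carry no test, since the members and groups were chosen with results of these data known. They use deposited counts, and some members lacked a string in some libraries, as described below. Id2, of the E protein group, had 1553 and 1368 CPM in MGE replicate 1 and LGE replicate 1, where it lacked a string. With its strings counted in every library it had 4143 and 3671 there. Mlxip, of the MYC/USF group, lacked a string in CTX replicate 1 and CGE replicate 2. The E protein shares of CTX replicates 1 and 2 (1.21% and 1.16%) exceeded no GE library other than those where Id2 lacked a string. These had 1.19% (MGE replicate 1) and 1.04% (LGE replicate 1), and the other GE libraries 1.25% to 1.30%. The group shares were not recounted, so whether the E protein group overlaps with 1 string set was not tested.

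**Figure D1:**
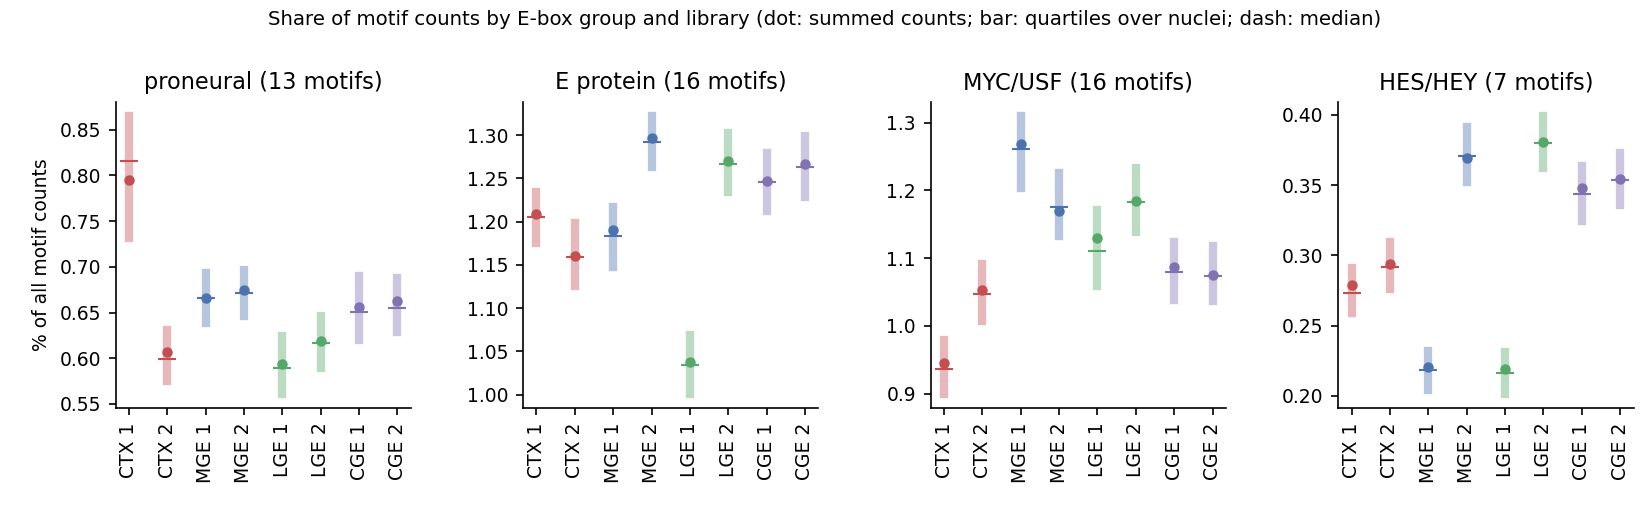
Share of all motif counts (%, vertical axes, not starting at 0) taken by each E-box group in the 8 libraries. Dots are counts summed over a library, bars the quartiles over nuclei and dashes the median nucleus; CTX replicate 1 stands above the other libraries for the proneural group (0.796%) and both CTX libraries stand below the GE libraries for the MYC/USF group.

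Among the proneural motifs, those that count CATATG strings were high in CTX replicate 1. OLIG2, named for a factor of motor neuron and oligodendrocyte progenitors, had 408 and 252 CPM in the CTX libraries. In the GE libraries OLIG2 had 218 and 234 (MGE), 176 and 223 (LGE) and 254 and 265 (CGE). Only CTX replicate 1 was outside the GE range. Neurog1, a neuronal determination factor, had 548 and 337 CPM in CTX, 262 and 289 in MGE, 216 and 291 in LGE and 317 and 315 in CGE, so both CTX libraries were above the GEs. Atoh1, which specifies hindbrain and sensory neurons, had 710 and 402 CPM in CTX and 281 to 398 in GE, again without overlap. NEUROD2, named for a factor of maturing cortical neurons, had 424 and 334 CPM in CTX, 347 and 288 in MGE, 252 and 266 in LGE and 236 and 228 in CGE, where MGE replicate 1 exceeded CTX replicate 2. NEUROG2, the motif of the main cortical proneural factor, had 199 and 123 CPM in CTX and 114 to 162 in GE. In all, CTX replicate 1 was above every GE library for 10 of the 13 proneural motifs, where it was for 21.1% of all motifs. CTX replicate 2 was above for 2, Neurog1 and Atoh1, where it was for 14.9% of all motifs.

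The proneural motifs Ascl2 and NHLH1, which count CAGCTG strings, were not higher in CTX. Ascl2, named for a factor of trophoblast and gut, had 1045 and 985 CPM in CTX and 1096 to 1343 in GE, so both CTX libraries were below. NHLH1, named for a factor of newly born neurons, had 591 and 572 CPM in CTX and 578.9 to 818 in GE.

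Of the E protein group, TCF4, a broadly used E protein, had 626 and 759 CPM in CTX and 783 to 1038 in GE, without overlap. Myog, a muscle factor, had 1191 and 1226 CPM in CTX and 1344 to 1552 in GE, also without overlap. Twist2, a mesenchymal factor, had 501 and 297 CPM in CTX and 259 to 311 in GE. TFAP4 had 196 and 172 CPM in CTX and 164 to 224 in GE, and ID4 1385 and 1089 in CTX against 977 to 1634 in GE.

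The MYC/USF motifs were mostly lower in CTX. BHLHE41, a repressor of the circadian clock, had 193 and 208 CPM in CTX, 290 and 251 in MGE, 254 and 261 in LGE and 223 and 244 in CGE. TFEB, the lysosome regulator, had 558 and 613 CPM in CTX and 629 to 790 in GE. MITF, known from melanocytes, had 267 and 270 CPM in CTX and 282 to 343 in GE. For 10 of the 16 motifs of the group (BHLHE41, MLX, MLXIPL, TFEB, TFEC, MITF, MYC, MYCN, USF2 and TFE3) both CTX libraries were below all GE libraries, where 15.7% of all motifs were. These 10 are not independent, since MLX and MLXIPL had equal counts and BHLHE41, MLX and TFEC each share a string with TFEB. USF1 overlapped, with 283 and 416 CPM in CTX and 329 to 509 in GE. MAX::MYC took 2 levels that did not follow the regions, 269, 285 and 278 CPM in CTX replicate 1, MGE replicate 2 and CGE replicate 2 and 159 to 178 in the other libraries.

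HEY1, a Notch-pathway repressor, had 147 and 135 CPM in CTX and 160 to 232 in GE. HEY2 had 193 and 180 CPM in CTX and 212 to 313 in GE, and for both motifs CTX and GE did not overlap. HES5 (87.1 and 84.3 CPM in CTX, 49.9 to 102 in GE) and Hes1 (498 and 316 in CTX, 378 to 624 in GE) overlapped. Over all members, both CTX libraries were above all GE libraries for 3 (Neurog1, Atoh1 and HESX1), where 10.7% of all motifs were. They were below for 15, where 15.7% of all motifs were. Ascl2, Myog, TCF4, HEY1 and HEY2 are the members among these 15 outside the MYC/USF group.

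**Figure D2:**
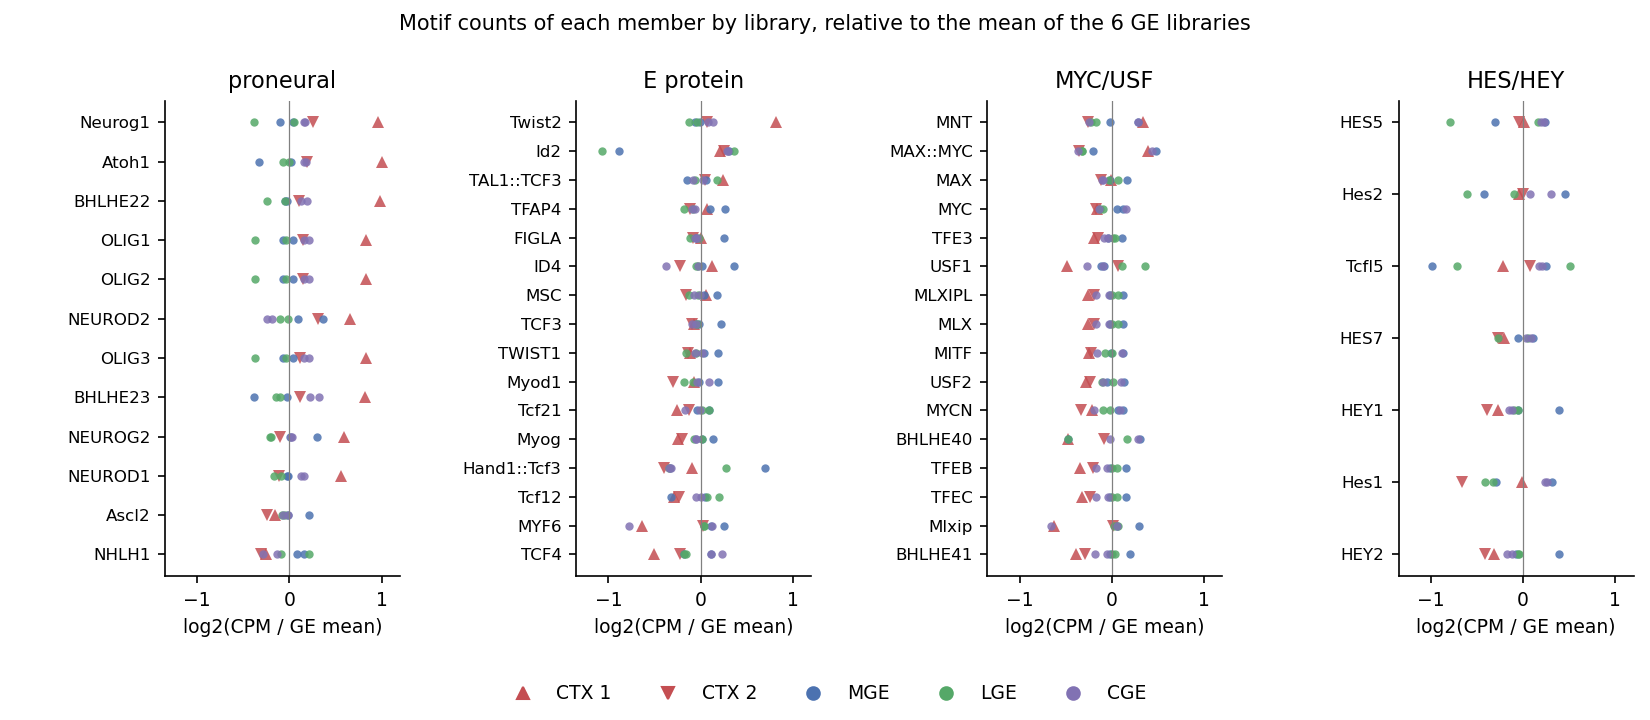
Motif level of grouped members in the 8 libraries, as the log2 ratio of CPM to the mean of the 6 GE libraries (horizontal axes, 0 is the GE mean). Upward and downward triangles are CTX replicates 1 and 2 and circles the GE libraries; for OLIG2 only CTX replicate 1 lies outside the circles, while for BHLHE41 and TFEB both triangles lie to their left.

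The first contrast asks whether CTX differed from the mean of the GEs. With edgeR's quasi-likelihood test, 0 of the 53 members passed a Benjamini-Hochberg adjusted p of 0.05, as did 0 of all motifs (0%). At an unadjusted p under 0.05, 10 members were higher in CTX (12.3% of all motifs were) and 12 lower (9.5%). The higher members held 8 of the 13 proneural motifs, and the lower members 8 of the 16 MYC/USF motifs and 2 of the 7 HES/HEY motifs. These members are not independent, since the higher ones hold OLIG1 and OLIG2 and the lower ones MLX and MLXIPL, pairs with equal counts. The median log2 difference was 0.55 over the proneural group, -0.205 over MYC/USF, -0.21 over HES/HEY and -0.08 over the E protein group, where it was -0.04 over all motifs. DESeq2, run as an alternative, called 12 members, 8 higher and 4 lower, where it called 14.2% of all motifs. Of these 7 were proneural and higher and 3 MYC/USF and lower.

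The smallest edgeR p of a member was that of NEUROD2, with a log2 difference of 0.53 (SE 0.11, adjusted p = 0.0821). This rank rests on deposited counts, in which NEUROD2 lacked a string in 7 of the 8 samples. Recounted with 1 string set, as described below, its adjusted p was 0.137 with edgeR. The homeobox motif HESX1 differed by 0.50 (adjusted p = 0.114) and BHLHE41 by -0.31 (SE 0.08, adjusted p = 0.115). Neurog1 differed by 0.68 (SE 0.19, adjusted p = 0.127), Atoh1 by 0.69 (SE 0.21) and OLIG2 by 0.56 (SE 0.18, adjusted p = 0.168). In the E protein group Myog differed by -0.20, Twist2 by 0.52, TCF4 by -0.32 and Tcf12 by -0.23. In the MYC/USF group TFEC differed by -0.25, TFEB by -0.25 and MYCN by -0.25, and in the HES/HEY group HEY2 by -0.33, HEY1 by -0.30, HES7 by -0.21 and Hes1 by -0.26. None of these passed after adjustment with edgeR, and DESeq2 called NEUROD2, HESX1, Neurog1, Atoh1, OLIG2, Myog, BHLHE41, TFEC and TFEB among them. The CTX library used moved many of these values by over 1.5 times. In every fit that leaves out 1 CTX library, of motifs, decamers, regions or genes, the GE libraries alone give the spread, and the lone CTX library is assumed to vary like them. Without CTX replicate 1 the difference was 0.35 for NEUROD2, 0.29 for Neurog1, 0.22 for Atoh1, 0.18 for OLIG2, 0.10 for Twist2, -0.185 for TCF4 and -0.61 for Hes1. Without CTX replicate 2 it was 0.69, 0.99, 1.035, 0.87, 0.845, -0.47 and 0.03 in the same order, and 2 of the 53 members, Twist2 and BHLHE22, passed with edgeR, where 0.864% of all motifs did.

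Several steps between libraries came with the strings counted rather than with the counts of a fixed string. Of the 28 matched members, 14 had the same strings in all their samples, 8 lacked a string in some samples and 13 used a string only in peaks of part of the GC range in some samples. Id2 had 1553 and 1368 CPM in MGE replicate 1 and LGE replicate 1 and 3325 to 3699 in the other libraries, and in those 2 libraries its string cCACGTGc was not counted. Mlxip had 1727 and 1682 CPM in CTX replicate 1 and CGE replicate 2 and 2681 to 3264 elsewhere, and MYF6 202 and 184 in the same libraries and 319 to 376 elsewhere. Both lacked a string there, aCACGTGa for Mlxip and aaCAACTGtt for MYF6.

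The matched members were recounted with the union of their strings in the peaks of every library, an alternative added after the data were seen. The ratio of the highest to the lowest library fell from 2.705 to 1.245 for Id2, from 1.94 to 1.202 for Mlxip, from 2.04 to 1.204 for MYF6 and from 1.52 to 1.197 for MNT. OLIG2 kept its ratio of 2.31, since its strings were the same in all libraries. For NEUROD2 the recount gave 652 and 392 CPM in CTX and 299 to 388 in GE. The regions no longer overlapped, but CTX replicate 2 (392) and CGE replicate 2 (388) lay close. Its log2 difference between CTX and GE was 0.60 when recounted, with a larger SE (0.17 against 0.11) and adjusted p (0.137 against 0.0821, edgeR) than as deposited. Id2 was then below all GE libraries in both CTX libraries, at 3328 and 3426 CPM against 3509 to 4143. So were NHLH1, at 591 and 662 CPM against 686 to 866, and BHLHE40, at 495 and 512 against 547 to 703. As deposited, these motifs overlapped. With the recount 0 members passed with edgeR in any of the 4 contrasts, and in CTX against GE 10 were higher (13% of all motifs) and 14 lower (9.84%) at an unadjusted p under 0.05.

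**Figure D3:**
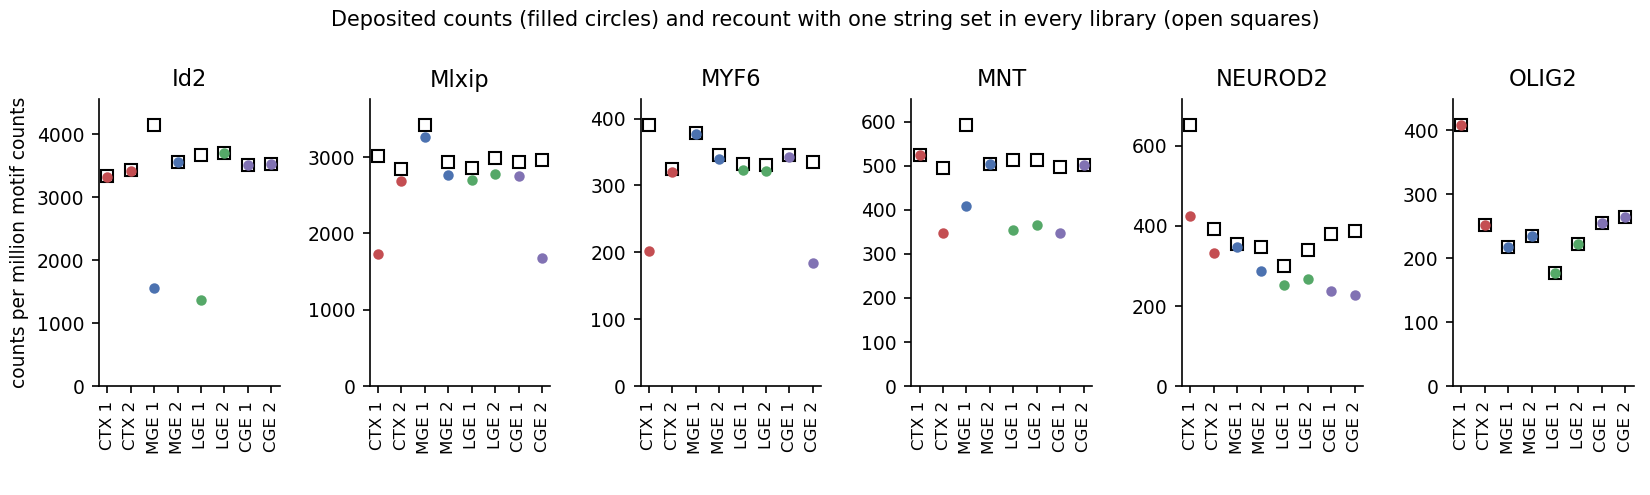
Counts per 1000000 motif counts (vertical axes, from 0) of 6 members in the 8 libraries, as deposited (filled circles) and recounted with one string set in every library (open squares). The low circles of Id2, Mlxip, MYF6 and MNT have squares near the level of the other libraries, while circles and squares coincide for OLIG2.

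Among the eminences, no difference passed with edgeR. In MGE against LGE 0 of 53 members were called (0% of all motifs). At an unadjusted p under 0.05, 1 was higher (3.45% of all motifs) and 0 lower (1.55%), and DESeq2 called 0 members (1.38% of all motifs). TFAP4 differed by 0.28 (SE 0.11), TWIST1 by 0.19 (SE 0.08) and USF1 by -0.38 (SE 0.19), each with an adjusted p of 0.74. In MGE against CGE edgeR called 0 members (0% of all motifs). Here 2 were higher at an unadjusted p under 0.05 (1.9%) and 0 lower (0.173%), and DESeq2 called 0 members (0.691%). NEUROD2 differed by 0.44 (SE 0.14) as deposited and by -0.14 (SE 0.22) when recounted, a turn of direction. NHLH1 differed by 0.32, and by 0.17 when recounted, and TFAP4 by 0.25. In LGE against CGE edgeR called 0 members (0% of all motifs). At an unadjusted p under 0.05 there were 0 higher (6.91%) and 0 lower (2.94%), and DESeq2 called 0 members (0.691%). TCF4 differed by -0.32 (SE 0.13), USF1 by 0.44 (SE 0.19) and NHLH1 by 0.30 (SE 0.13), or 0.17 when recounted.

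The regional pattern was then described within classes of nuclei, clustered on shared regions and named by marker genes, with values for classes of at least 50 nuclei in a sample. Among glutamatergic-like nuclei the proneural share was 0.816% in CTX replicate 1 and 0.727% in CTX replicate 2. It was 0.709% and 0.682% in CGE, 0.656% and 0.665% in LGE and 0.695% in MGE replicate 2. Here both CTX libraries were above the GE libraries, unlike in whole samples. This order and the class names depended on the resolution of the clustering. At a resolution of 1, chosen as an alternative, a cluster of 2208 nuclei that held most GE nuclei of the class was unnamed, and the proneural share of those still named was 0.816% and 0.728% in CTX, 0.675% and 0.697% in LGE and 0.7325% and 0.729% in CGE. CTX replicate 2 was then below both CGE libraries. The class came from different clusters, since 1 cluster held 3117 of the CTX replicate 1 nuclei and another held the 543 of CTX replicate 2 with those of the GEs. OLIG2 showed the same order, at 428 and 318 CPM in the glutamatergic-like nuclei of CTX and 226 to 305 in those of the GEs. NEUROD2 had 446 and 454 CPM in these nuclei of CTX and 254 to 323 in those of the GEs, as deposited. The strings behind these NEUROD2 values differ, since acCATATGgt was counted in CTX replicate 2 but not in CTX replicate 1, LGE or CGE. Counts within classes were not recounted.

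In the unnamed nuclei of CTX replicate 2 the proneural share was 0.596%, and in the unnamed nuclei of the GEs, which lay mostly in other clusters, it was 0.587% and 0.606% in LGE and 0.649% and 0.653% in CGE. Among progenitor-like nuclei it was 0.673% in CTX replicate 1 and 0.584% to 0.694% in the GEs. At a resolution of 1 it was 0.673% there and 0.568% to 0.677% in the GEs, with only MGE replicate 2 above CTX replicate 1. LGE replicate 2 and CGE replicate 2 then had 2299 and 1279 progenitor-like nuclei, against 277 and 216 at the resolution used otherwise. The 137 GABAergic-like nuclei of CTX replicate 1 had 0.743%, and those of the GEs 0.592% to 0.671%. The MYC/USF share among progenitor-like nuclei was 0.904% in CTX replicate 1 and 1.05% to 1.24% in the GEs. Among glutamatergic-like nuclei it was 0.949% and 1.07% in CTX and 1.05% to 1.205% in the GEs, where CTX replicate 2 lay above both CGE libraries. These shares use deposited counts and were not recounted with 1 string set. Mlxip, which lacked a string in CTX replicate 1 and CGE replicate 2, had 1687 and 1706 CPM in their progenitor-like nuclei. In those of the other GE libraries it had 2662 to 3265, and the part of this in the MYC/USF shares was not tested.

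**Figure D4:**
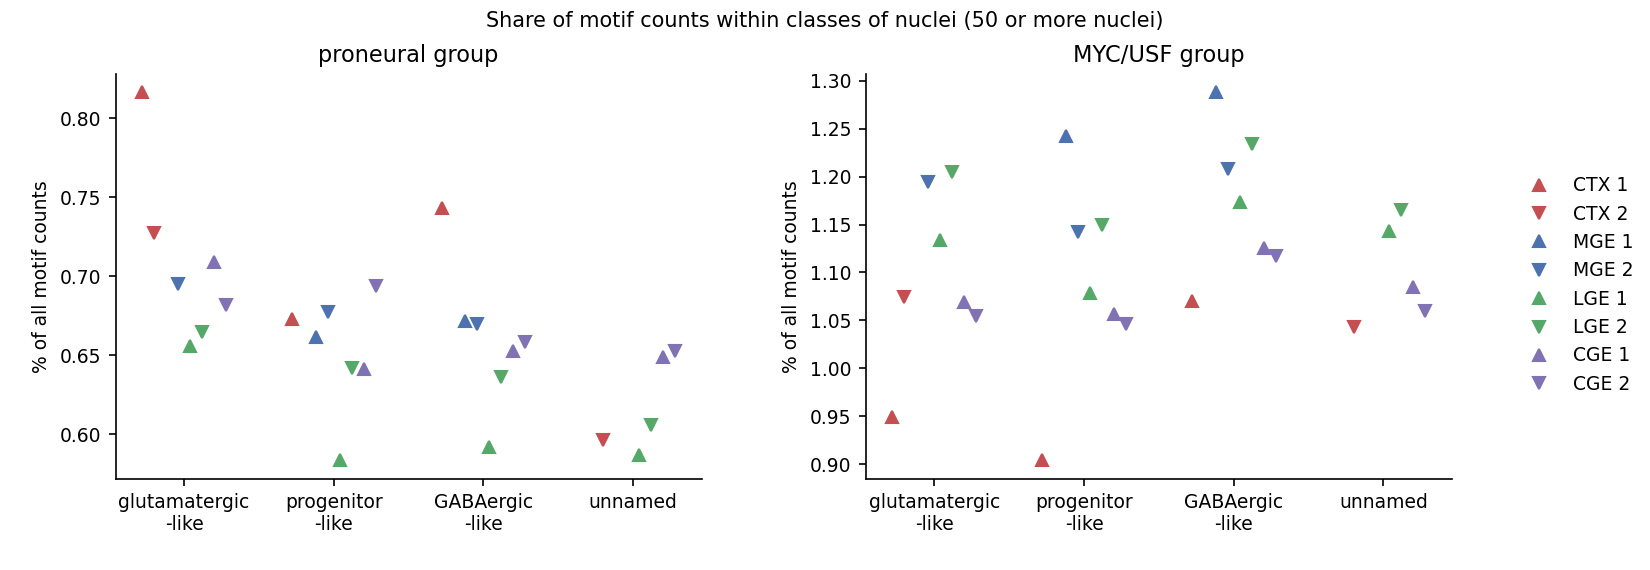
Share of all motif counts (%, vertical axes, not starting at 0) of the proneural and MYC/USF groups within classes of nuclei, for libraries with at least 50 nuclei of the class. Upward and downward triangles are replicates 1 and 2; among glutamatergic-like nuclei the 2 CTX triangles (0.816% and 0.727%) are the highest for the proneural group.

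Within progenitor-like nuclei, CTX could be tested only through CTX replicate 1 against the 6 GE libraries, whose nuclei lay in other clusters. LGE replicate 2 and CGE replicate 2 entered with 277 and 216 such nuclei, numbers that depended on the resolution of the clustering. The GE libraries alone give the spread of this test, and the lone CTX library is assumed to vary like them. With edgeR 0 members were called, where 0.345% of all motifs were, and 10 were higher (11.6% of all motifs) and 7 lower (10%) at an unadjusted p under 0.05. DESeq2 called 11 members, where it called 17.6% of all motifs. The median log2 difference was 0.42 over the proneural group and -0.23 over MYC/USF. OLIG2 had 296 CPM in CTX replicate 1 and 174 to 261 in the GEs, and TFEB 520 against 593 to 757.

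To compare E-boxes without the motif lists, all decamers with CANNTG and a pair of bases on each side were counted in the 68274 regions with a peak in every sample, both strands joined, which gave 2080 decamers. This comparison was added after the data were seen. With edgeR 466 decamers (22.4%) differed between CTX and GE, 255 higher in CTX (12.3%) and 211 lower (10.1%). By core, 49 of 136 CATATG decamers rose and 2 fell, with a median log2 difference of 0.08. Of the 136 CAGCTG decamers 1 rose and 42 fell, and of the 256 with CACCTG 4 rose and 54 fell. The core CACGTG had 8 higher and 23 lower of 136, and CAGATG 30 higher and 18 lower of 256. CATATG was not alone in leaning higher, since CACATG had 54 higher and 4 lower of 256 and CAAATG 47 and 10 of 256, cores found in none of the strings of matched members. The median log2 difference of CACATG decamers was 0.037, and 0.021 without CTX replicate 1 and 0.06 without CTX replicate 2. For CAAATG it was 0.019, 0.015 and 0.02 in the same order. The differences were small, between -0.33 and 0.32 on the log2 scale over all decamers. Of the 38 decamers that members count, 5 rose, each with a CATATG core, and 13 fell, 6 with CACGTG, 5 with CAGCTG and 2 with CACCTG.

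These counts moved with the libraries used. Without CTX replicate 1, 179 of all decamers were higher (8.61%) and 138 lower (6.63%), and without CTX replicate 2 these were 361 (17.4%) and 309 (14.9%). Of the CATATG decamers 23 were higher and 3 lower in the first of these fits and 75 and 2 in the other, and of the CAGATG decamers 17 and 23 in the first and 61 and 23 in the other. The lower CACGTG decamers numbered 10 and 49 in these fits, and the lower CACCTG decamers 18 and 75. Leaving out MGE replicate 1 gave CATATG 32 higher and 2 lower, leaving out LGE replicate 2 gave 28 and 0, and leaving out CGE replicate 2 gave 29 and 0. For CAGCTG, 25 were lower if LGE replicate 1 was left out, 23 with LGE replicate 2 out, 26 with CGE replicate 1 out and 23 with CGE replicate 2 out. The lower CACGTG decamers numbered 13 with LGE replicate 2 out and 11 with CGE replicate 2 out. In the same fits the lower CACCTG decamers numbered 19 and 19 and the higher CAGATG decamers 12 and 13. Over all cores 298 were called in the absence of LGE replicate 1, 214 in that of LGE replicate 2 and 218 in that of CGE replicate 2. By direction, 202 of all 2080 decamers were higher and 153 lower without MGE replicate 1. These counts were 175 and 123 without LGE replicate 1 and 126 and 88 without LGE replicate 2. They were 214 and 156 without CGE replicate 1 and 132 and 86 without CGE replicate 2. CATATG decamers lay in regions of lower GC content (48.7%) than CACGTG decamers (53.2%), and 20.97% and 36.96% of their regions were promoters. In the regions away from promoters alone, CATATG had 40 higher and 4 lower, CAGCTG 4 and 45, CACGTG 9 and 32, CACCTG 15 and 35 and CAGATG 20 and 27, where 11.4% of all decamers were higher and 10.8% lower. In the 18991 of these with 45.0% to 51.0% GC, CATATG had 35 higher and 9 lower and CAGCTG 4 and 30, CACGTG had 17 and 26, CACCTG 32 and 28 and CAGATG 19 and 40, where 13.8% of all decamers were higher and 12.6% lower. At that GC content CACCTG decamers were called about as often in both directions, and CAGATG decamers more often lower.

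The ggCACGTGcc string of HEY1 and HEY2 fell by 0.26 on the log2 scale (SE 0.04, adjusted p = 0.00372, edgeR). It made up 0.312% and 0.3115% of the region counts in CTX and 0.342% to 0.419% in GE. The agCAGCTGct string of Ascl2 fell by 0.15 (SE 0.02), from 2.07% to 2.26% of the counts in GE to 1.95% and 1.92% in CTX. The aaCATATGgt string shared by 8 members rose by 0.22 (SE 0.04, adjusted p = 0.00475), at 0.525% and 0.494% in CTX and 0.419% to 0.452% in GE. The gcCATATGgc string of Neurog1, NEUROD2 and Atoh1 rose by 0.29 (SE 0.06, adjusted p = 0.0127), but by 0.14 without CTX replicate 1, where its adjusted p was 0.0585. It did not pass in regions away from promoters alone either (0.24, adjusted p = 0.0843), nor in those of 45.0% to 51.0% GC (0.19, adjusted p = 0.184).

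Single regions were then tested. By edgeR 9.49% of all shared regions passed as higher in CTX and 5.39% as lower, 11.6% and 6.37% of those away from promoters and 2.23% and 2.03% of promoter regions. Away from promoters, regions with CATATG in the central 300 bases were called higher in 13.9% and lower in 5.32%. Regions with CAGCTG were called higher in 10.2% and lower in 8.27%, and regions with CACGTG higher in 10.3% and lower in 6.04%. Regions with CAGATG (11.6% and 6.40%) were close to all regions of that kind. CACCTG regions were called higher in 11.1% and lower in 5.26%, each below the share of all regions of that kind. Lower calls were thus not in excess among them, unlike among the CACCTG decamers. With 2 or more copies the 133 CATATG regions were called higher in 21.1% and lower in 7.52%, and the 1629 CAGCTG regions higher in 8.04% and lower in 12.1%. Regions without CAGCTG were called higher in 11.98% and lower in 5.84%. GC content of the central 300 bases moved with the copies. It was 48.2% without CATATG and 42.5% with 2 or more copies, and 47.5% without CAGCTG and 51.9% with 2 or more. Copies were not compared at matched GC content or with a library left out, so copies and GC content cannot be told apart here.

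The region calls depended on the libraries used. Without CTX replicate 1, 15.1% of CATATG regions away from promoters were called higher and 14.505% lower, where all regions of that kind had 15.2% and 13.7%. Without CTX replicate 2 these were 27.4% and 9.76%, against 19.4% and 12.2%. The CATATG excess was thus not seen with CTX replicate 2 as the only CTX library. CAGCTG regions had 13.1% higher and 16.3% lower without CTX replicate 1 and 18.8% and 15.2% without CTX replicate 2. Leaving out a GE library lowered the shares called. CATATG regions were called higher in 7.47% without MGE replicate 1, 10.2% with MGE replicate 2 out, 8.36% with LGE replicate 1 out, 7.54% with LGE replicate 2 out, 7.61% with CGE replicate 1 out and 6.08% with CGE replicate 2 out. All regions of that kind had 6.59%, 8.735%, 7.19%, 6.54%, 6.575% and 4.96% in the same fits, and CAGCTG regions 5.34%, 7.13%, 6.23%, 5.365%, 5.42% and 4.0%. The shares of CAGCTG regions called lower were 4.97%, 5.66%, 4.24%, 4.14%, 4.12% and 3.63%. For all regions of that kind they were 3.91%, 4.28%, 3.24%, 3.05%, 3.13% and 2.67%. CACGTG regions had 4.71% to 7.52% higher and 2.14% to 3.97% lower in these fits. With covered length as an offset, the 420 higher and 168 lower CATATG regions, promoters included, became 234 and 124. The 1237 higher and 1022 lower CAGCTG regions became 658 and 768, a turn in which direction was called more often. The 277 and 167 CACGTG regions became 135 and 136, and all shared regions had 3493 and 2767.

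The regions below are among those with at least 2 copies of a hexamer and the smallest p in each direction, cut to 20 bases outside the outer copies and shown because their E-boxes can be read. Capitals mark the hexamer on either strand, and positions are on the forward strand of GRCm38. The CAGATG region higher in CTX lies between genes at chr7:138501631-138501796, 104043 bp from the start of Tcerg1l, with 21.97 and 37.0 CPM in CTX and 1.08 to 3.41 in GE. The CACGTG region lower in CTX lies between genes at chr10:117496249-117496305, with 0.861 and 0.790 CPM in CTX and 7.96 to 30.5 in GE. The CATATG region, picked after its values were seen, lies between genes at chr9:42184113-42184301, 59888 bp from the start of Sorl1, with 64.7 and 47.1 CPM in CTX and 13.0 to 24.9 in GE. The choice by p fixes that CTX and GE lie apart there.

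CAGATG region, higher in CTX: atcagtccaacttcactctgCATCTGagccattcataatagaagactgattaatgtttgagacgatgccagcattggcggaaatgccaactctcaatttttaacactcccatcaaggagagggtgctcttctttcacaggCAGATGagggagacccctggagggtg
CACGTG region, lower in CTX: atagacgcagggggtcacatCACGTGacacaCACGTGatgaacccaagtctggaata
CATATG region, higher in CTX: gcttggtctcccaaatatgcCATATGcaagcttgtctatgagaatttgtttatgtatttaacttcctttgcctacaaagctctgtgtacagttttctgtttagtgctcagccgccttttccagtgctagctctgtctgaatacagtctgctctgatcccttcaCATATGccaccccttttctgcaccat

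Among the regions not printed were a CAGATG region in an intron of Sft2d2 (log2 difference -4.39) and a CACGTG region 25878 bp from Rtl6 (2.76). A CATATG region in an intron of Inpp5a was lower in CTX (-2.13).

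Accessibility at the bHLH genes themselves was read from peaks over each gene and 2000 bp upstream, for 68 of 69 listed genes that could be tested. With edgeR 9 of these differed between CTX and GE, where 4.51% of all genes did. Of the 17 proneural and neuronal genes, Neurog2, Neurod6 and Bhlhe22 rose and Olig1 and Olig2 fell. Neurog2 had 109 and 154 CPM in CTX and 47.2 to 74.2 in GE (log2 difference 1.13, SE 0.14, adjusted p = 0.00934). Neurod6, a gene of postmitotic cortical neurons, had 126 and 43.0 CPM in CTX and 1.08 to 11.97 in GE (4.17, SE 0.45). Bhlhe22, a gene of cortical projection neurons, had 82.5 and 96.3 CPM in CTX and 53.0 to 58.1 in GE (0.81, SE 0.10).

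Olig2 had 46.0 and 42.3 CPM in CTX, 227 and 162 in MGE, 109 and 124 in LGE and 94.1 and 112 in CGE, a fall by 1.48 on the log2 scale (SE 0.19, adjusted p = 0.00974). Olig1 fell by 0.83 (SE 0.14), at 16.3 and 19.3 CPM in CTX and 24.7 to 51.6 in GE. The Olig1 and Olig2 genes were thus lower in both CTX libraries, whereas the motif with their names was above the GE range in CTX replicate 1. Neurod2 had 158 CPM in CTX replicate 1 alone, 16.9 in CTX replicate 2 and 11.1 to 21.2 in GE (adjusted p = 0.0671).

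Of the 20 E protein, ID and partner genes tested, Tcf4 and Twist2 rose. Tcf4 had 1033 and 606 CPM in CTX and 305 to 410 in GE (1.31, SE 0.21), against a TCF4 motif that was lower in CTX. Twist2 had 12.7 and 21.6 CPM in CTX and 1.45 to 13.5 in GE (1.81, SE 0.33), where the groups overlapped. Of the 21 MYC, USF and MIT genes, Mycl fell by 0.65 (SE 0.11), at 92.5 and 97.5 CPM in CTX and 143 to 181 in GE. Mitf rose by 0.94 (SE 0.18), at 117 and 161 CPM in CTX and 57.5 to 87.8 in GE. Usf1 (54.6 and 55.2 CPM in CTX, 61.7 to 72.4 in GE) and Mycn (152 and 176 in CTX, 142 to 159 in GE) did not pass. Of the 10 HES and HEY genes 0 passed with edgeR, where 4.51% of all genes did. At an unadjusted p under 0.05 and with DESeq2 the count was also 0, with no share over all genes given here. Hes5 had 151 and 221 CPM in CTX and 201 to 299 in GE, Hes1 126 and 197 in CTX and 111 to 164 in GE, and Hey1 111 and 150 in CTX and 105 to 125 in GE. A peak over several genes counted for each of them.

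**Figure D5:**
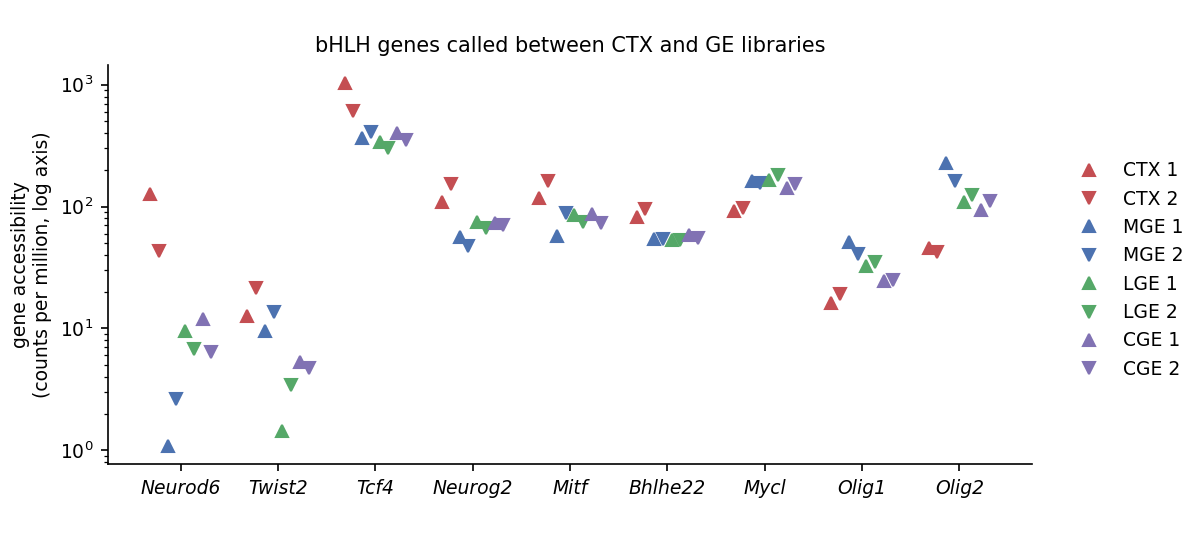
Accessibility (CPM, log vertical axis) of the 9 bHLH genes called between CTX and GE, in the 8 libraries. Upward and downward triangles are replicates 1 and 2; both CTX triangles lie above the GE triangles for Neurod6, Tcf4, Neurog2, Mitf and Bhlhe22, below for Mycl, Olig1 and Olig2, while for Twist2 MGE replicate 2 (13.5) exceeds CTX replicate 1 (12.7).

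With only the peaks near start sites counted, Neurod6 (log2 difference 4.10, adjusted p = 0.0597), Twist2 (0.63, adjusted p = 0.904) and Mitf (0.50, adjusted p = 0.388) did not pass with edgeR. Neurog2, Neurod6, Olig2 and Bhlhe22 passed in every fit that left out 1 library. With CTX replicate 1 left out the Tcf4 difference was 0.80, and with replicate 2 left out it was 1.68. Over all fits with 1 library left out, the difference ranged from -0.901 to -0.766 for Olig1 and from -0.694 to -0.633 for Mycl. It ranged from 0.756 to 1.108 for Mitf and from 1.442 to 2.106 for Twist2, so all these genes kept their direction. Neurod2 differed by 0.10 without CTX replicate 1 and passed without CTX replicate 2 (3.44, adjusted p = 0.00191, edgeR), a fit with a lone CTX library that called 10.4% of all genes. Tcf4 did not pass without MGE replicate 1 (adjusted p = 0.0576) or CGE replicate 2 (0.0649), and Olig1 did not without CTX replicate 1, either LGE library or either CGE library (0.0501 to 0.0754). Mycl did not pass without CTX replicate 1, MGE replicate 1, either LGE library or either CGE library (0.0515 to 0.0883). Mitf did not without CTX replicate 2 or any of the LGE and CGE libraries (0.0619 to 0.0958), and Twist2 did not without CTX replicate 2, either MGE library or either CGE library (0.0541 to 0.0958).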

How the data were processed

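Each of the 8 samples had a matrix of peak counts and a matrix of motif counts per nucleus, both whole-number counts deposited by the authors. The submitters' processing notes name Cell Ranger ATAC 1.2.0 and the builds GRCm38 and mm10. The motif matrices and their thresholds are not given in the sources used here. All deposited barcodes were kept, no doublet caller was run, and nuclei were not treated as replicates.

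Counts were summed per sample, and the sums over all motifs, 68274 shared regions or 17357 genes were tested with edgeR 4.0.16 (TMM, filterByExpr, quasi-likelihood test, Benjamini-Hochberg adjusted p of 0.05) in 1 fit over the 4 regions. DESeq2 1.42.0 was the alternative, and each sample was left out in turn. The steps were tested on simulated data. GC content and strings came from the GRCm38 reference, genes from GENCODE M21. Promoter regions lay within 1000 bp of a start site. Nuclei were clustered with leidenalg 0.10.2, and the rule that scored markers was set after the clusters were seen.

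The members and lists were chosen with earlier results of these data known. Motifs named were the 4 with the smallest p per group, 3 per contrast among the eminences and a fixed list; genes were those called and a fixed list; regions were those with the smallest p per direction, with chromosome 18 left out. Other motifs named were chosen after their values were seen. The decamer counts and the recount were added after the data were seen. Some items that the rules name are not reported here.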

Additional observations from a re-analysis of the deposited data

Results flagged for a closer look

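Over the 6 GE libraries 44 values were tested for a single library far from the others, and 3 stood out, where chance gives about 1 in 20. The motif HEY2 had 312.574 CPM in MGE replicate 1 and 212 to 232 in the other GE libraries. The motif HEY1, which shares strings with it, had 232.28 CPM in the same library and 160 to 170 in the others. Accessibility at the gene Bhlhe22 was 58.083 CPM in CGE replicate 1 and 53.0 to 54.8 in the other GE libraries. The cause was not tested for any of these.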

How the results depend on the processing

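The motif calls of CTX against GE were 0 with edgeR, 12 with DESeq2 and between 0 and 2 when 1 library was left out. In progenitor-like nuclei DESeq2 called 11. The proneural share difference, as a percent of the GE mean, was 8.62 and ranged from -6.03 to 23.27 when 1 library was left out. Called regions with an E-box hexamer numbered 5777, and 9010 with DESeq2, 3538 with covered length as an offset, 9921 over the whole region and 2422 to 10623 with 1 library left out. Called bHLH genes numbered 9, and 17 with DESeq2 and 4 to 11 with 1 library left out, and decamers 466, and 214 to 670. By edgeR on all libraries, regions with a hexamer were called higher in 9.17% and lower in 5.52%, near all shared regions (9.49% and 5.39%). The counts of regions with a hexamer are thus not read as a result about E-boxes. With edgeR on all libraries 4.51% of all genes were called. That share is not given here for DESeq2 or for most fits with a library left out. Those counts of bHLH genes are thus not read as a result about these genes. Of values near 0, ID4 turned to 0.003 with DESeq2 and 0.004 with total peak counts, TFAP4 to -0.01 and HES5 to -0.005 with total motif counts. With 1 library left out the log2 difference spanned 0 for NEUROG2 (-0.06 to 0.626), TFAP4 (-0.076 to 0.102), USF1 (-0.45 to 0.114), MAX::MYC (-0.316 to 0.429), Hes1 (-0.614 to 0.031), ID4 (-0.182 to 0.156), HES5 (-0.109 to 0.198) and the gene Id4 (-0.177 to 0.235). The cause was not tested. Samples with the same replicate number deviated together in motifs among the GEs (correlations of 0.283 to 0.416) but not between CTX and the GEs (-0.454 to -0.243). In regions the correlations were 0.029, 0.169 and 0.151 between CTX and MGE, LGE and CGE and -0.042 to 0.308 among the GEs. Not every pair passed 0.1 and the labels tie the numbers to no shared batch, so the numbers were not taken to pair the samples. Odd values made up 9.545% to 10.42% of the peak matrix entries in the libraries numbered 1 and 5.17% to 5.85% in those numbered 2, and the part of this split in the results was not tested. With a replicate block 0 motifs in each of the 4 contrasts, 5300 regions, 8 genes and 633 decamers were called, and Mitf was the gene lost (0.936, adjusted p = 0.0516, edgeR). Left out of the progenitor-like test, CTX replicate 1 leaves no CTX sample, so that fit has no value.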
